A study of Homo sapiens with 24 samples.

Results

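IL6, LIF and their relatives are cytokines that signal through a shared receptor chain. Each binds its own receptor subunit together with gp130, the product of IL6ST, and the assembled receptor activates JAK kinases, which phosphorylate the transcription factor STAT3. STAT3 then enters the nucleus, binds DNA and turns on genes that include SOCS3, an inhibitor of the same receptor. In mammary epithelium this axis is known for its part in involution, inflammation and tumor progression. The 10 genes described here were the ligands IL6 and LIF, the receptors IL6R, IL6ST, LIFR and OSMR, the kinases JAK1 and JAK2, the transcription factor STAT3 and the inhibitor SOCS3. They were chosen by name for their place in the pathway, out of 21569 gene symbols named in the region tables, and a region was assigned to a member wherever the table listed that symbol as overlapping or flanking it. This gave 135 of the 171345 regions in all 6 tables.

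The study asked how loss of ANCO1, the protein encoded by ANKRD11, changes acetylation of histone H3 on lysine 27 (H3K27Ac), a mark of active promoters and enhancers, across the chromatin of mammary epithelial cells. H3K27Ac ChIP-seq was performed on MCF10A (10A), an immortalized, non-tumorigenic line, and on MCFDCIS (DCIS), a line descended from oncogene-transfected 10A cells that models ductal carcinoma in situ. Both lines had been infected with a lentivirus and selected with puromycin, and carried either a hairpin against ANCO1 (shANCO1) or a control hairpin (shCTRL, labelled shGFP). The 24 libraries made 8 groups of 3, namely each line with each hairpin, immunoprecipitated or left as input, and the study describes a single shANCO1 hairpin line for its ChIP-seq comparisons.

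The processed values were made by csaw, which tests sliding windows and joins them into regions, and each region had 1 representative log2 fold change and 1 false discovery rate (FDR) for a whole group of libraries. The spread between libraries, the depth and the read counts were therefore not analysed here, and no value below has an SD. A representative value need not hold over the whole width of a region, so the number of windows up is given beside many values. A region is called up when its FDR lies under 0.05 and the authors' direction is up. Whether a rise came from more cells carrying the mark or from more mark per cell cannot be told apart, the transcripts of these genes and of ANCO1 were not measured in these files, and nothing in the labels says whether the 3 libraries of a group came from separate cultures. The epithelial genes EPCAM, CDH1, KRT8 and KRT18 and the basal genes KRT5, KRT6A, TP63 and EGFR were enriched over input in all 4 groups, whereas KRT14 had no enriched region over the gene and none of 3 leukocyte markers had one in any group. The luminal gene ESR1 and the endothelial marker PECAM1 were also enriched in all 4 groups, FOXA1 in shANCO1 cells of both lines and the fibroblast marker PDGFRA in all but DCIS shCTRL. Markers of other cell types also moved between shANCO1 and shCTRL cells. Of 3 genes in each list, 2 luminal, 2 fibroblast, 2 endothelial and 1 leukocyte had a region up in 10A. In DCIS 2 luminal, 2 endothelial and none of the others had one. Of all gene symbols, 74.3% had a region up in 10A and 32.2% in DCIS. The basal genes had one at 4 of the 4 with any region in 10A and at 4 of 5 in DCIS. The epithelial genes had one at 4 of 4 in 10A and at 2 of 4 in DCIS. PDGFRA had 17 of 25 regions up in 10A (2.51 at the lowest FDR) and 0 of 11 called in DCIS. In DCIS, ESR1 had 5 of 8 regions up (3.38) and FOXA1 3 of 3 (1.63), while PECAM1 had 9 of 20 down (-2.96). The part of these markers in the results below was not tested.

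The stretches below come from the region with the lowest FDR at each named gene in a chosen line. This was not always the largest change at the gene. In DCIS, the LIF region used had a value of 0.95, while others at LIF were up at 1.64 and 1.50. The IL6R region used had a value of 1.88 in DCIS, beside 2.11 at another. For JAK1, the DCIS region up at 2.28 was not used and held no STAT match. The reference bases (hg38) of these stretches are shown here because later results refer to them. Each is read on the strand of its gene, and capitals mark the STAT motif TTCNNNGAA, the AP-1 motif TGACTCA and the NF-kB core GGGNNTTTC, each searched on both strands. None of these matches overlapped another. The OSMR, IL6R, JAK1 and LIF stretches were placed around a STAT match of a region called up, so its presence was fixed by choice. In 10A, the lowest-FDR regions of IL6R and LIF held no STAT match over their whole width. The STAT3 stretch is the middle of its region, and the IL6 site is a match in its promoter shown with its nearest bases. The first is an OSMR intron at chr5:38870969-38871268, plus strand.
OSMR: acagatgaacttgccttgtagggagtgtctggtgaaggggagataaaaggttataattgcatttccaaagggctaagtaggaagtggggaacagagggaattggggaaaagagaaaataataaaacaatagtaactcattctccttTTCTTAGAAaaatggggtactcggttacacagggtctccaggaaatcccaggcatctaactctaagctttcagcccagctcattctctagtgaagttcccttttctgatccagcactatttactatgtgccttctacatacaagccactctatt
The IL6R stretch is intronic, at chr1:154423001-154423300, plus strand.
IL6R: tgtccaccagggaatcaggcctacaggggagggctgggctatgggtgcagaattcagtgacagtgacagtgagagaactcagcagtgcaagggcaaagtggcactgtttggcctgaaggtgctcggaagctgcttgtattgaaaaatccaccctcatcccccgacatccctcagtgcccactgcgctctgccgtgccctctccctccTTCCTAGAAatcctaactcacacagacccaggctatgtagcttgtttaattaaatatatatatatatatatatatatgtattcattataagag
The JAK1 stretch is intronic, at chr1:64916869-64917168, minus strand, and also holds an NF-kB match.
JAK1: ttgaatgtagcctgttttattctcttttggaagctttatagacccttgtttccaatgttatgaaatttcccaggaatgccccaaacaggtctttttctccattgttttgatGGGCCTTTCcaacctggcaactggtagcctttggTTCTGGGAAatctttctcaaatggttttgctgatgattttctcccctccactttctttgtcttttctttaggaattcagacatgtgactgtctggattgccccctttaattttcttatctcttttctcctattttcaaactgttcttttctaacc
The LIF stretch lies upstream of the transcription start site (TSS), at chr22:30247393-30247692, minus strand, and holds a STAT match followed by an AP-1 match.
LIF: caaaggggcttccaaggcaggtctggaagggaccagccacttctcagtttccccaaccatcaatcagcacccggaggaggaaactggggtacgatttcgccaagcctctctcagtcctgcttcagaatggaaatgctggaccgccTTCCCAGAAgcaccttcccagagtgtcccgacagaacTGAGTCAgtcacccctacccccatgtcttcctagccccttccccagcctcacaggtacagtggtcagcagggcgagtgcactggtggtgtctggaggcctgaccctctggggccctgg
The STAT3 stretch is intronic, at chr17:42320001-42320300, minus strand, with an AP-1 match.
STAT3: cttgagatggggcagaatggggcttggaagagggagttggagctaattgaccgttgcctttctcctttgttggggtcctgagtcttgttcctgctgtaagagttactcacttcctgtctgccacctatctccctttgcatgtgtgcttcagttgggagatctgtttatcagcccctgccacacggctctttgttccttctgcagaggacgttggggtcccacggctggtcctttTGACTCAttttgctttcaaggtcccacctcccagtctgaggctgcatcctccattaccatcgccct
The IL6 site is the NF-kB match of its promoter, at chr7:22727117-22727145, plus strand.
IL6 site: tatcaaatgtGGGATTTTCccatgagtct

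These motifs were not rare in the tables. Taking the middle 300 bp of every region, a STAT match was found in 9.69% of the 50284 regions of 10A and in 8.68% of the 44790 regions of DCIS, and in 6 of 41 and 6 of 38 regions at the members. Among members' regions called up, 2 of 22 in 10A and 2 of 12 in DCIS had one. The STAT matches in the OSMR, IL6R, JAK1 and LIF stretches came from a search of whole regions. They lie outside the middle windows, so the shares given here are not a base rate for them. AP-1 matches were in 11.1% and 9.4% of all regions, and in 4 of 41 and 3 of 38 at the members. NF-kB matches were in 4.93% and 5.16% of all regions, and in 3 of 41 and 2 of 38 at the members. A form of the NF-kB motif with a further C at its end, searched first, matched fewer of all regions and of the DCIS member regions. The TEAD motif ACATTCC, searched on both strands and not marked in the stretches above, was in 5.24% and 4.74% of all regions, and in 2 of 41 and 0 of 38 at the members. RefSeq promoters (GRCh38.p14, 300 bases each) matched 9 of the 10 members with 17 promoters. The STAT motif was in 7.66%, AP-1 in 4.95%, NF-kB in 4.78% and TEAD in 3.46% of all 35116 RefSeq promoters. Among the members' own, 2 LIFR promoters held a STAT match, the IL6R promoter an AP-1 match and the IL6 promoter an NF-kB match. The RefSeq promoters of SOCS3 held no STAT match. Its wider 10A region over the TSS (1700 bp) held 3, with a match in the middle 300 bp. A match is a string of letters and says nothing of binding.

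Loss of ANCO1 went with higher H3K27Ac at all 10 members in 10A cells and at 5 of 10, namely LIF, IL6R, OSMR, JAK1 and STAT3, in DCIS cells. In 10A, 22 of 41 regions at the members were up and 0 were down by the csaw FDR, with 0 down at an unadjusted p under 0.05. In DCIS, 12 of 38 were up and 0 down, with 1 down at an unadjusted p under 0.05. These counts have to be read against the rest of the genome. In 10A, 43.6% of all regions passed as up and 0.225% as down. In DCIS the shares were 23.6% up and 4.86% down. At least 1 region up was found for 74.3% of all gene symbols in 10A and for 32.2% in DCIS. The whole 10A table was shifted, with a median log2 fold change of 0.76 over all regions, and the members' median was 0.83, with 26 of 41 regions above the median of all. The DCIS table had a median of 0.52, and the members' median was 0.70, with 23 of 38 regions above it.

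**Figure D1:**
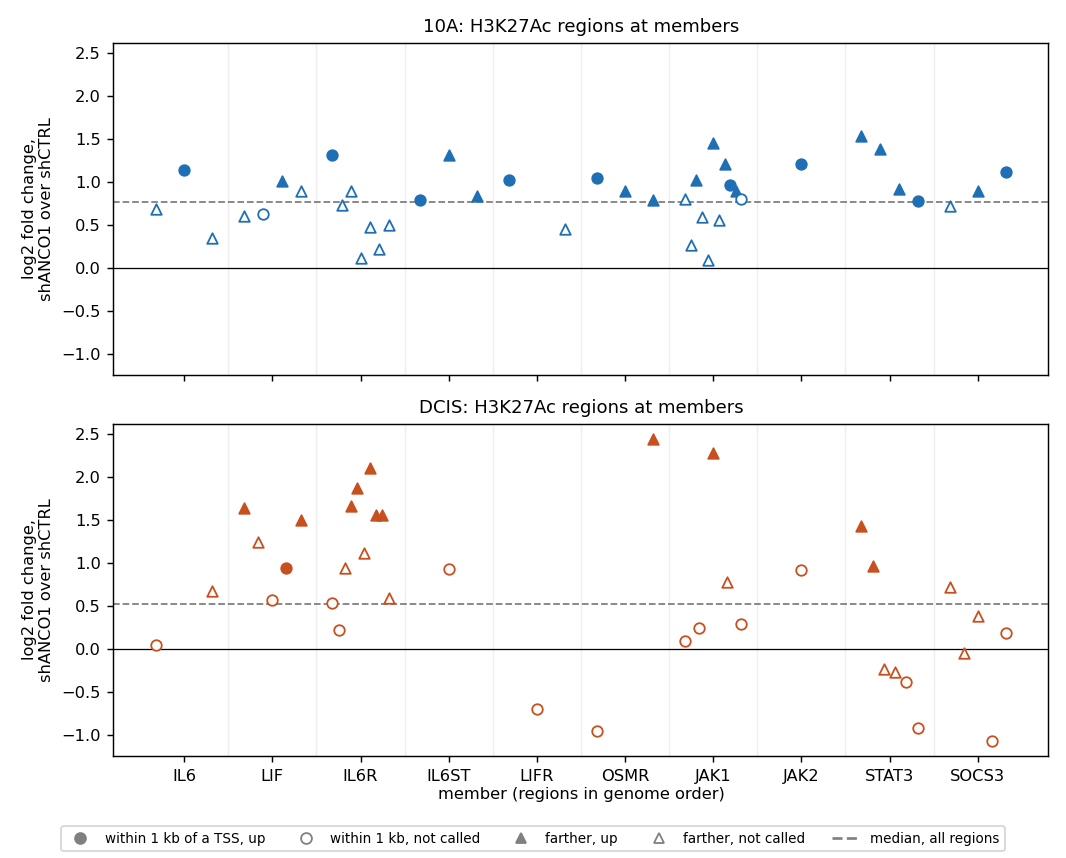
H3K27Ac change (log2 fold change of shANCO1 over shCTRL) of every region at the 10 members in 10A (top, 41 regions) and DCIS (bottom, 38 regions); circles lie within 1 kb of a TSS, triangles farther, filled symbols are up at FDR under 0.05, and the dashed line is the median of all regions of the line. All 10A values lie between 0.09 and 1.54, while DCIS values run from -1.07 to 2.45.

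The lines differed in where the regions called up were placed. Within 1 kb of a TSS, 9 of 11 regions at the members were up in 10A, where 59.8% of all such regions were up, and 1 of 16 was up in DCIS, where 7.99% of all such regions were up. Farther from a TSS, 13 of 30 were up in 10A against 38.3% of all, and 11 of 22 in DCIS against 30.1% of all. Of these 11 in DCIS, 5 were at IL6R alone, and regions at the same gene are not independent of one another. The median log2 fold change of the members' regions near a TSS was 1.02 in 10A and 0.20 in DCIS, and that of the farther regions was 0.80 and 1.18. Over all regions the same medians were 0.82 and 0.13 near a TSS and 0.74 and 0.72 farther away.  The difference between the lines was not tested, since the tables hold no value per library.

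**Figure D2:**
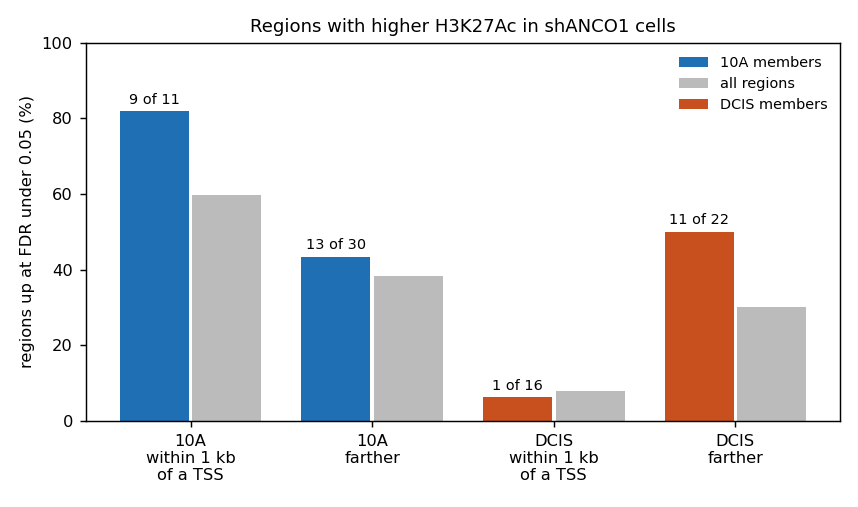
Share of regions up at FDR under 0.05 (y axis, percent) at the members (coloured, with counts) and over all regions (grey), within 1 kb of a TSS and farther away, in 10A and DCIS. Within 1 kb of a TSS, 9 of 11 regions at the members were up in 10A, beside 59.8% of all such regions, and 1 of 16 in DCIS, beside 7.99%.

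Among the ligands, IL6 encodes the founding cytokine of the family and lies on chr7. In 10A, the region over its TSS, chr7:22726101-22728000, had a value of 1.15 on the log2 scale (FDR 0.01, 3 of 18 windows up), and it holds the NF-kB site printed above. The regions on either side, upstream and at the end of the gene, had values of 0.69 (FDR 0.143) and 0.35 (FDR 0.496) and were not called. In DCIS, the TSS region had a value of 0.05 (FDR 0.984) and the intronic region beyond it one of 0.68 (FDR 0.333). IL6 carried little mark over input. Its only enriched region was a single window of 200 bp at the TSS in 10A shCTRL cells, with a log2 enrichment of 2.94, and none was listed in the other 3 groups. In 10A shANCO1 cells the gene was thus up against shCTRL yet had no region past the authors' cut over input.

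LIF encodes leukemia inhibitory factor, which acts through LIFR and gp130, and it was the member with the widest mark in DCIS. Over input, 4 regions covering 7000 bp were enriched in DCIS shCTRL cells and 6 regions covering 9400 bp in DCIS shANCO1 cells, with the highest log2 enrichments at 4.23 and 5.50. In 10A, no region was enriched in shCTRL cells and 1 region of 200 bp in shANCO1 cells. In the direct comparison in DCIS, 4 adjoining regions ran across the gene and its upstream side. The 2 upstream regions were up, at 0.95 (FDR 0.0259, 18 of 47 windows) and 1.50 (FDR 0.0265, 1 of 43 windows), and the first of them holds the LIF stretch printed above. The region over the TSS had a value of 0.57 (FDR 0.33) and the one over the end of the gene a value of 1.25 (FDR 0.0684), neither called. A separate region 9659 bp downstream of the TSS was up at 1.64 (FDR 0.0347, 1 of 26 windows). In 10A the only LIF region called was upstream, at 1.01 (FDR 0.0289, 2 of 30 windows), with the TSS region at 0.63 (FDR 0.134). Adjoining regions share chromatin and are not independent of one another.

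Of the receptors, IL6R binds IL6 itself. Its promoter region was up in 10A, at chr1:154405401-154406300, with a value of 1.31 (FDR 0.000339, 7 of 8 windows), and its other 6 regions, all intronic, ranged from 0.12 to 0.90 with none called. In DCIS the promoter regions were not called, with values of 0.53 (FDR 0.48) and 0.22 (FDR 0.808), and 4 intronic regions were up. They lay in order along the gene at 1.66 (FDR 0.00381, 17 of 17 windows), 1.88 (FDR 4.35e-05, 9 of 9 windows), 2.11 (FDR 0.00183, 10 of 13 windows) and 1.56 (FDR 0.0111, 5 of 8 windows). A further region, 4551 bp beyond the gene, was up at 1.56 (FDR 0.0346). The STAT match of the printed IL6R stretch lies in the second of these intronic regions. Only 1 IL6R region was enriched over input in each line, both in shANCO1 cells, at the promoter in 10A and in an intron in DCIS.

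OSMR, the oncostatin M receptor subunit, was enriched over input in all 4 groups, as was STAT3, and had the largest gain of any member region. The DCIS region at chr5:38870801-38872300, which lies in an intron 24789 bp from the TSS and contains the OSMR stretch printed above, rose by 2.45 on the log2 scale (5.45-fold, FDR 9.08e-05, 9 of 12 windows up). The overlapping region in 10A rose by 0.79 (FDR 0.00987, 22 of 27 windows). At the promoter the values were 1.04 in 10A (FDR 0.00591, 24 of 38 windows) and -0.96 in DCIS (FDR 0.878, 0 of 34 windows), so that the DCIS promoter was not called. A further intronic region was up in 10A only, at 0.90 (FDR 0.0248), and DCIS had no region there. The enriched length was 2300 bp in 10A shCTRL cells and 6300 bp in 10A shANCO1 cells, and 1900 and 1600 bp in the DCIS groups. Both DCIS groups were enriched at the promoter, and no OSMR intron passed the authors' cut over input there.

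IL6ST encodes gp130, the signal-transducing chain shared by the family. In 10A all 3 of its regions were up. The promoter region, 3600 bp wide, had a value of 0.79 (FDR 0.000548, 26 of 35 windows), which is 0.03 above the median of all 10A regions, and the 2 upstream regions of 1 window each had values of 1.31 (FDR 0.00302) and 0.83 (FDR 0.0487). In DCIS its single region had a value of 0.93 (FDR 0.766) and was not called. Its promoter was enriched over input in both 10A groups, over 1400 bp with shCTRL and 2600 bp with shANCO1, and in DCIS with shCTRL (800 bp) but in no region with shANCO1. LIFR is the receptor subunit for LIF. Its promoter region was up in 10A at 1.02 (FDR 0.00286, 6 of 8 windows) and had a value of -0.70 in DCIS (FDR 0.251, 0 of 6 windows). Enrichment over input was listed for 10A shANCO1 and for DCIS shCTRL cells only, with 1 region each.

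**Figure D3:**
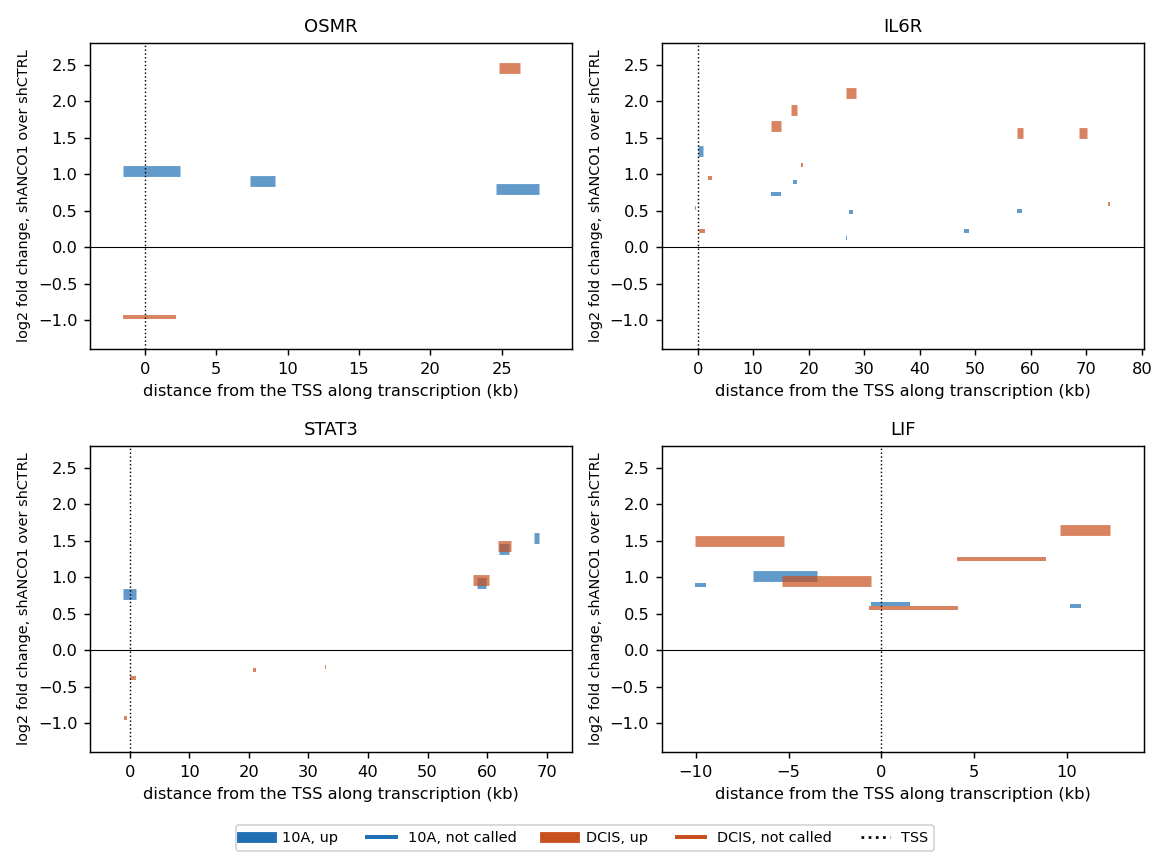
Regions at OSMR, IL6R, STAT3 and LIF by distance from the TSS (x axis, kb, positive along transcription) and log2 fold change of shANCO1 over shCTRL (y axis) in 10A (blue) and DCIS (orange), with thick bars for regions up at FDR under 0.05 and thin bars for the rest. The DCIS bars at the OSMR, IL6R and STAT3 promoters are thin and those inside the genes include thick ones, up to 2.45 for OSMR.

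JAK1, one of the kinases bound to gp130, had the most regions of any member in 10A, 11, of which 5 were up. The strongest was intronic, chr1:64916301-64918600, at 1.45 (2.74-fold, FDR 0.000111, 4 of 17 windows), and contains the JAK1 stretch printed above. The promoter region of the main transcript was up at 0.97 (FDR 0.0083, 15 of 17 windows), and the region at a start site 101152 bp farther upstream had a value of 0.80 (FDR 0.0557). In DCIS the 2 regions nearest to that main start had values of 0.10 and 0.25 (FDR 0.956 and 0.922). A single region was up in DCIS, chr1:64989901-64990200, at 2.28 (FDR 0.00033), which rests on 2 windows and lies upstream of the main start, inside an intron of longer transcripts. Over input, JAK1 had 5 enriched regions covering 2300 bp in 10A shANCO1 cells and none in the other 3 groups.

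JAK2, the other kinase member, had 1 region in each line, over its TSS. It was up in 10A at 1.21 (FDR 0.000386, 12 of 22 windows), and its value in DCIS was 0.92 (FDR 0.0694, 4 of 15 windows). The JAK2 promoter was enriched over input in 10A shANCO1 cells over 1200 bp, in DCIS shANCO1 cells over 500 bp and in DCIS shCTRL cells over 200 bp.

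STAT3, the transcription factor at the end of the cascade, had regions up in both lines away from its promoter. In 10A all 4 of its regions were up. The highest was the intronic region chr17:42319801-42320500, printed in part above, at 1.54 (2.91-fold, FDR 0.00168, 6 of 6 windows). Next to it, toward the promoter, lay regions over coding exons that were up in both lines. The first was at 1.38 in 10A (FDR 0.0131, 3 of 8 windows) and 1.43 in DCIS (FDR 0.00305, 11 of 21 windows). The second was at 0.92 in 10A (FDR 0.0326, 2 of 15 windows) and 0.96 in DCIS (FDR 0.033, 7 of 25 windows). At the TSS the values were 0.78 in 10A (FDR 0.0186, 1 of 18 windows) and -0.38 in DCIS (FDR 0.731, 0 of 9 windows), and a further DCIS region 359 bp upstream had a value of -0.92 (FDR 0.128), the only member region that csaw put lower at an unadjusted p under 0.05. The second of the exon regions was also the most strongly enriched STAT3 region over input, with a log2 enrichment of 7.06 over 13 windows in DCIS shANCO1 cells. Over the same stretch the DCIS shCTRL table listed 2 narrow regions, at 3.48 and 3.03.

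SOCS3, the feedback inhibitor and a textbook target of STAT3, was up at its TSS in 10A, at 1.12 (FDR 0.0271, 6 of 13 windows), and at a 1-window region at the end of the gene (0.89, FDR 0.0412). In DCIS none of its 5 regions was called. The 2 nearest to the TSS had values of -1.07 (FDR 0.21) and 0.18 (FDR 0.92). Only DCIS shANCO1 cells had an enriched SOCS3 region, of 200 bp.

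Seen over input, the marked length at the members was 4200 bp in 10 regions at 4 members in 10A shCTRL cells and 15600 bp in 18 regions at 8 members in 10A shANCO1 cells. In DCIS it was 11400 bp in 14 regions with shCTRL and 14300 bp in 14 regions with shANCO1, at 6 members each. The whole tables moved too, from 15490 regions covering 9035200 bp to 28607 covering 25252500 bp in 10A, and from 15482 covering 10958100 bp to 16692 covering 11870100 bp in DCIS. The median log2 enrichment at the members was 3.33 and 3.48 in the 10A shCTRL and shANCO1 tables, beside 3.32 and 3.40 over all regions, and 3.84 and 3.88 in DCIS, beside 4.09 and 4.47. Of the members' enriched regions in 10A, 9 of 10 with shCTRL overlapped one with shANCO1, and 6 of 18 with shANCO1 overlapped one with shCTRL. In DCIS, 10 of 14 and 8 of 14 did. These overlaps were not counted over all enriched regions, so they show nothing particular to the members. Regions of the direct tables lay over an enriched shANCO1 region for 15 of 41 members' regions in 10A (45.2% of all regions) and 12 of 38 in DCIS (30.3% of all), and over an enriched shCTRL region for 6 of 41 (23.5% of all) and 11 of 38 (27% of all).

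**Figure D4:**
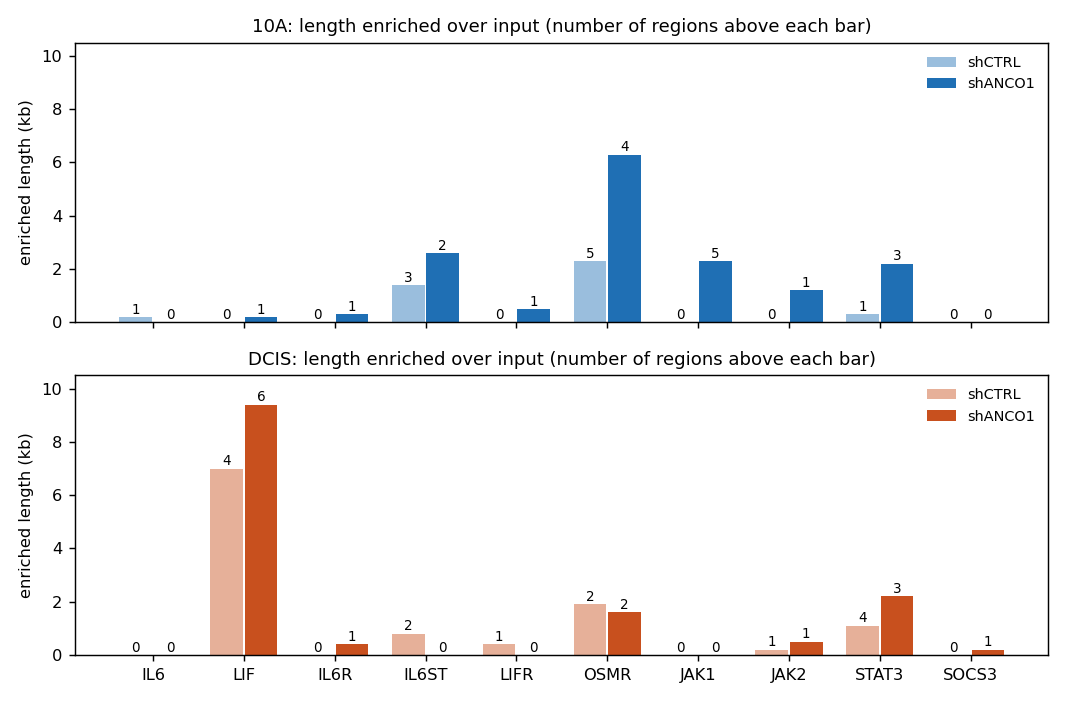
Length enriched for H3K27Ac over input (y axis, kb) at each member in shCTRL (pale) and shANCO1 (dark) cells of 10A (top) and DCIS (bottom), with the number of regions above each bar. LIF stands out in DCIS at 7000 and 9400 bp and OSMR in 10A at 2300 and 6300 bp, and JAK1 is marked in 10A shANCO1 cells alone.

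Where the regions of both lines overlapped, they could be set side by side at the same place. There were 30 overlapping pairs, made of 25 regions of 10A and 28 of DCIS. Both were up in 5 pairs, which lay at LIF, the OSMR intron and STAT3. The 10A region alone was up in 13 pairs and the DCIS region alone in 7, all 7 of them at IL6R or LIF and none within 1 kb of a TSS. Neither was up in 5. The value was higher in 10A in 17 of the 30 pairs. The regions came from a separate table for each line, so these counts are a description. Over all regions, 43.6% were up in 10A and 23.6% in DCIS. Overlapping pairs were not counted over all regions, so nothing particular to the members can be read from these counts.

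Other genes of the pathway, 42 in all and named from textbook knowledge, were read in the same way. In 10A, 32 of the 41 that had a region had at least 1 up, where 74.3% of all gene symbols did, and none had one down. In DCIS, 12 of 38 had one up, where 32.2% of all did, and 3 had one down. These counts lie near the shares over all genes. Among the other ligands and cofactors, 5 of 8 were up in 10A and 2 of 6 in DCIS. CLCF1, a cytokine of the family, had a flanking region at 2.14 in 10A (FDR 1.2e-05) and 2.70 in DCIS (FDR 7.38e-07). OSM, which encodes oncostatin M and neighbours LIF, was up through flanking regions only. In 10A the region lay 5029 bp away, at 1.74 (FDR 2.87e-05). In DCIS it was the region upstream of LIF that the genes share, at 1.50. CTF1, another cytokine of the family, was up in 10A at 1.13 (FDR 0.00035) and had a value of 1.17 in DCIS (FDR 0.0775). Of the other receptors, IL11RA was up in 10A at 0.94 (FDR 0.000678) and none was called in DCIS.

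Among the other JAKs and STATs, 6 of 8 genes were up in 10A (74.3% of all gene symbols), led by STAT6 at 1.65 (FDR 1.43e-05), STAT5A at 1.68 (FDR 0.000339) and STAT5B at 1.40 (FDR 0.00879). In DCIS 2 of 7 were up (32.2% of all), STAT4 at 2.14 (FDR 0.000683) and STAT6 at 2.19 (FDR 0.00136), and STAT6 also had a region down at -1.72 (FDR 0.0124). Of the other inhibitors, 8 of 9 were up in 10A and 4 of 9 in DCIS, beside the same 74.3% and 32.2% of all gene symbols. The phosphatase gene PTPN1 had values of 1.08 (FDR 1.74e-05) and 1.93 (FDR 0.00124) in 10A and DCIS, and the phosphatase gene PTPN11 0.86 (FDR 0.000566) and 1.07 (FDR 0.0172). SOCS2, of the same family as SOCS3, had values of 1.20 (FDR 8.86e-05) in 10A and 1.80 (FDR 0.000359) in DCIS. Both came from flanking regions, 7314 and 7014 bp from the gene.

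Of 14 genes known as STAT3 targets, 12 had a region up in 10A, beside 74.3% of all gene symbols, and 4 in DCIS, beside 32.2% of all, where 2 had a region down. They had 76 regions in 10A and 66 in DCIS, and a gene with more regions has more chances of a call. BCL2L1, which encodes the survival protein BCL-xL, had the strongest of these, an intronic region in DCIS at 3.45 (FDR 4.64e-08, 7 of 7 windows), and 1.07 in 10A (FDR 7.91e-06). In 10A, MCL1, another survival gene, was up at 1.21 (FDR 5.57e-06) and HIF1A, the hypoxia-response factor, at 1.30 (FDR 9.35e-06). In DCIS, SBNO2 was up at 1.59 (FDR 0.000613), and JUNB, an AP-1 subunit, at 1.54 (FDR 0.00109) in a region 6686 bp from the gene. The regions down in DCIS were at BCL3 (-1.42, FDR 0.0159) and at CEBPB (-1.46, FDR 0.0111), both transcriptional regulators. The median log2 fold change over the target genes' regions was 0.86 in 10A and 0.39 in DCIS, beside 0.76 and 0.52 over all regions.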

How the data were processed

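The 24 libraries were grouped by their labels, and all 6 deposited tables were read. The authors' methods name BWA and Rsubread for alignment of the read pairs (GRCh38), samtools for deduplication, and csaw for the test of differential binding. The authors deposited, for each region, a representative log2 fold change, a p-value with its FDR, and numbers of windows tested, up and down, with 3 libraries per group entering together, so these are the authors' own comparisons and were not refitted. How libraries were normalized, windows filtered and merged, and which input libraries were used is not given in the sources used here; a scaling difference between groups would move every fold change of a table. Tables against input hold almost only strongly enriched regions, so that a missing region means none past that filter.

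Regions were matched to members by the symbols in the tables' gene columns, called at FDR under 0.05, and placed against GENCODE release 44 (hg38), with a TSS counted as near within 1 kb of any protein-coding start and positions described by the canonical transcript. Motifs and bases were read from hg38 with pysam 0.24.0, and tables were handled in Python 3.11.15 with pandas 2.3.3. The matching of regions to genes, the calls, simple distances and overlaps and the motif search were tested on simulated data. The other steps were not tested in this way. All members and, of each other list, at most 3 genes per line with the lowest FDR, plus any gene with a region down, were named. The members and lists were chosen with earlier results of these data known. The 4 motifs (STAT, AP-1, NF-kB and TEAD) were chosen after seeing the data, and NF-kB was searched as a core of 9 letters, in place of a longer form tried first.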

Additional observations from a re-analysis of the deposited data

How the results depend on the processing

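Regions called up at the members fell from 22 to 12 in 10A and from 12 to 6 in DCIS at FDR under 0.01. In 10A the count was 13 when a size of 1 log2 unit was also asked for, and 0 when a region had to lie at least 1 log2 unit above the median of all regions, a setting that left 8 in DCIS. Enriched regions over input rested on few windows. Asking for at least 5 windows left 7 of 18 in 10A shANCO1, 1 of 10 in 10A shCTRL, and 5 of 14 in both DCIS groups. FDR under 1e-10 left 5 in 10A shCTRL and 7 in DCIS shCTRL. The share of all regions that pass each of these settings is not given here. The counts, and the 0 in 10A beside 8 in DCIS, therefore show nothing particular to the members. Taking the region at the TSS in place of the lowest FDR turned OSMR to -0.96 and STAT3 to -0.38 in DCIS, neither called. It ended the call at 4 others (LIF in both lines, IL6R and JAK1 in DCIS) and kept 14 of 20 results. For most of these 14 both choices gave the same region, so nothing could change. These were IL6, IL6R, IL6ST, LIFR, OSMR, JAK2 and SOCS3 in 10A, and IL6ST, LIFR, JAK2 and SOCS3 in DCIS. The others kept were JAK1 (1.45 to 0.97) and STAT3 (1.54 to 0.78) in 10A, and IL6 in DCIS (0.68 to 0.05, neither called). Subtracting the median of the table, which cannot change a call, turned no sign but lowered every value, in 10A from 0.79 to 0.03 at IL6ST and from 1.01 to 0.25 at LIF. No paired analysis was possible because the tables give 1 value per region for a whole group, for the same reason no library was left out, and depth per library is unknown.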
